A study of Mus musculus with 19 samples.

Results

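The contacts of Rnf32 inside the chromatin domain of Shh were examined in capture Hi-C maps of mouse chromosome 5. Rnf32 was represented by 4 neighbouring bins of 10 kb, from 29520001 to 29560000 in the mm9 build, out of 280 bins in each map. These bins were chosen by position and not by any measured value, and the other 276 bins are the partners. The window lies 730 to 760 kb above the main Shh bin, in the upper part of the domain and just below the body of Lmbr1. No mm9 gene annotation was used here, so the placing of genes in bins follows the stated coordinates and was not checked, while the gene order Shh, Rnf32, Lmbr1 was read from RefSeq (GRCm38.p6).

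Sonic hedgehog, the secreted signal made from Shh, patterns limbs and the nervous system, and the gene is separated from Rnf32 by a gene desert that holds many of its enhancers. The limb enhancer of Shh, the ZRS, lies in an intron of Lmbr1, so Rnf32 sits between the gene and its limb enhancer. Rnf32 encodes a RING finger protein that is known from testis and is not itself a member of the Shh signalling pathway. CTCF is a DNA-binding protein that halts loop extrusion by cohesin and is found at many loop anchors and domain borders.

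The 19 samples form 9 groups, and each group was deposited as 1 merged map. Wild type limb buds (3 samples) and wild type midbrain (2 samples) came from C57BL/6 embryos at stage E10.5, and wild type embryonic stem (ES) cells (2 samples) were of the G4 line. One of the ES cell samples also carries the stage label E10.5, and the library suffix in its title differs from that in the name of the merged map, so which libraries the ES map holds is not settled by the labels. The mutant embryos were also at E10.5, were labelled as strain G4 and have 2 samples a group. Limb buds carried deletions of the CTCF sites i4 and i5 (i4i5), of i4, i5 and a further site named for the ZRS (i4i5ZRS), of i4 and i5 together with the element ZRSreg, of ZRSreg alone, or of the Lmbr1 promoter on both alleles. Midbrain carried the i4i5ZRS deletion. Strain and genotype cannot be told apart where a mutant is set against C57BL/6 wild type, so the limb i4i5 with ZRSreg map was also set against the ZRSreg map, which has the same strain label. Likewise, cell type and strain cannot be told apart where G4 ES cells are set against C57BL/6 limb buds. Per the series design the wild type samples are biological replicates and the mutant samples technical ones, and the titles of 2 of the 3 wild type limb samples give the same library number. The maps hold no expression values, so the labelled tissues could not be checked against marker genes.

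Values are observed over expected, which is the balanced signal of bin pairs divided by the mean over all pairs of that separation in the map, so 1 is the average contact for that distance. Because samples were merged before deposit there is no error between replicates and no p-value. Intervals in parentheses are 95% intervals from recovered contact counts. They hold for counting error alone and set library against library, not condition against condition. Maps held 1177173 (limb i4i5) to 3218492 (ES cells) contacts, and the Rnf32 window took part in 37012 to 95387 of them. Its bins were covered 1.19 to 1.25 times as deeply as the median bin of the map before balancing, with little difference between maps. Comparisons that share the wild type limb map are not independent of each other.

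The promoter sequences of Rnf32 and Lmbr1 are shown because the window carries the one and a limb mutant lacks the other. They are 300 bases each from RefSeq (GRCm38.p6), 5′ to 3′ on the gene's strand, at chr5:29195743-29196042 (plus strand) for Rnf32 and chr5:29378341-29378640 (minus strand) for Lmbr1. Capitals mark matches on either strand to CCCTC, the repeat after which CTCF is named.
Rnf32 promoter: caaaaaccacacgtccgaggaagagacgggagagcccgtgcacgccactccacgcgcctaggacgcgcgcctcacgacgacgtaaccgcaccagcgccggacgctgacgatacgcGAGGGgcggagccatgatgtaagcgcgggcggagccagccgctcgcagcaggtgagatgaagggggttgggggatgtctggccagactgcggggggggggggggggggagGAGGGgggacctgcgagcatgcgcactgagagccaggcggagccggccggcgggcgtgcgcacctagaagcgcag
Lmbr1 promoter: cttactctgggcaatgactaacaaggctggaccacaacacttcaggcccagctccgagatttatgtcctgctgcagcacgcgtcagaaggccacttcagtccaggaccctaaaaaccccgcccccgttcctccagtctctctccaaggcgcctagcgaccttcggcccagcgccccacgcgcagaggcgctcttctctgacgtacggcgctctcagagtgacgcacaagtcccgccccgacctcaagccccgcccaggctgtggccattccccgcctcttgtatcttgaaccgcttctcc
The Rnf32 promoter held 2 matches, both as GAGGG, and the Lmbr1 promoter held 0. Of 32851 promoters of this length, 66.0% held at least 1 match, so these letters are common in promoters. Both promoters were rich in CpG, with 36 in Rnf32 and 21 in Lmbr1 against a median of 7 over all promoters. Neither contained GATC, the DpnII site at which the libraries were cut, which 48.0% of promoters contained. These coordinates belong to another build than the maps and were not converted.

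The contact of Rnf32 with Shh was 3 to 5 times the average for its distance in all 9 maps. Wild type limb stood at 3.81 (3.58 to 4.05, from 1057 contacts) and wild type midbrain at 3.88 (3.60 to 4.18, 764 contacts). ES cells stood highest at 4.74 (4.43 to 5.07, 904 contacts). The limb and midbrain intervals overlapped, and the ES interval lay above both. On the log2 scale the midbrain to limb ratio was 0.03 (-0.11 to 0.17) and the ES to limb ratio was 0.32 (0.18 to 0.45). The ES difference was 0.12 on contact counts without balancing and 0.18 at the lowest when 1 of the 4 window bins was left out.

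Among the limb mutants, i4i5 and i4i5 with ZRSreg had the lowest Shh contact, while i4i5ZRS, which also lacks i4 and i5, stood beside ZRSreg. Limb i4i5 stood at 3.08 (2.78 to 3.40, 422 contacts), limb i4i5 with ZRSreg at 3.05 (2.84 to 3.28, 778 contacts) and limb i4i5ZRS at 3.54 (3.25 to 3.86, 571 contacts). Limb ZRSreg stood at 3.50 (3.24 to 3.76, 735 contacts), and the Lmbr1 promoter deletion at 3.83 (3.59 to 4.08, 994 contacts). Only limb i4i5 and limb i4i5 with ZRSreg lay wholly below the wild type limb interval. The log2 ratio to wild type limb was -0.31 (-0.48 to -0.14) in i4i5 and -0.32 (-0.46 to -0.18) in i4i5 with ZRSreg. In i4i5ZRS it was -0.10 (-0.26 to 0.05), in ZRSreg -0.12 (-0.26 to 0.02) and in the Lmbr1 promoter deletion 0.01 (-0.12 to 0.14), and these 3 intervals include 0. On contact counts without balancing, the ratio was -0.22 in i4i5ZRS and -0.27 in ZRSreg, beside -0.24 in i4i5 and -0.31 in i4i5 with ZRSreg, so without balancing ZRSreg alone was not set apart from the maps that lack i4 and i5. On the ZRSreg-deleted background, with strain label shared, loss of i4 and i5 went with a ratio of -0.20 (-0.35 to -0.05), which was -0.038 on contact counts without balancing. Limb i4i5ZRS against limb i4i5 gave 0.20 (0.01 to 0.39), and this difference was not seen with the main Shh bin alone (-0.010) or on contact counts without balancing (0.018).

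In midbrain the i4i5ZRS map stood at 4.25 (3.94 to 4.57, 742 contacts), and its log2 ratio to wild type was 0.13 (-0.02 to 0.28). This is the only CTCF deletion map in which the Rnf32 window had the higher value than its wild type, and its interval includes 0. With 4 Shh bins in place of 2 the ratio was -0.055.

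**Figure D1:**
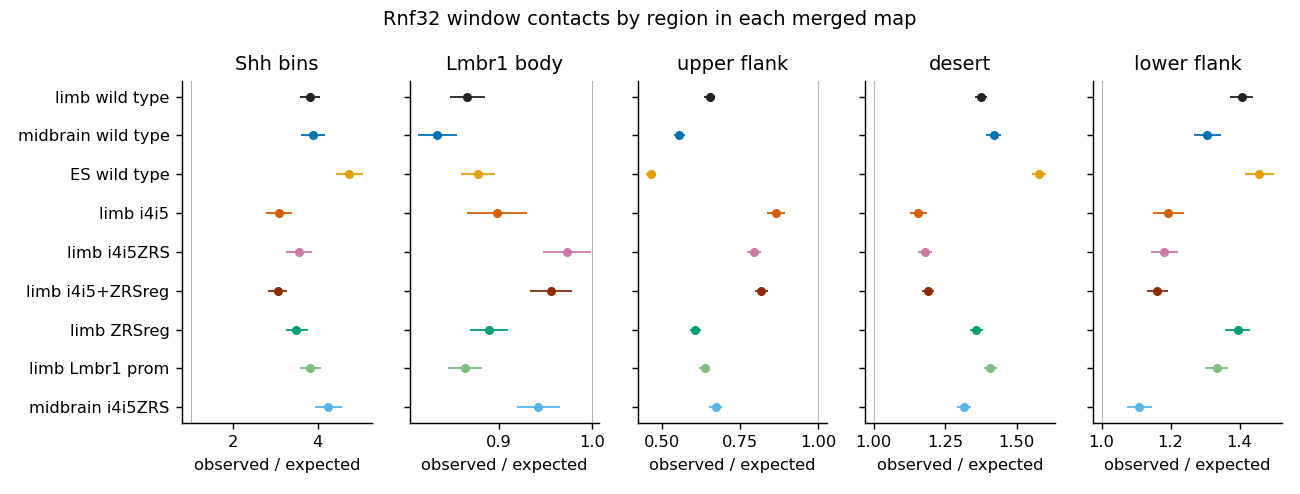
Contact of the Rnf32 window with 5 regions in the 9 merged maps, as observed over expected with 95% counting intervals (horizontal bars); each panel has its own horizontal axis, and the grey line is at 1. Contact with Shh lies between 3.05 and 4.74, while contact with the upper flank lies below 1 in every map and is highest in the 3 limb maps without CTCF sites.

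Within the window the bins were not alike. The first bin, at 730 kb and nearest to Shh, had the highest Shh contact of the 4 in every map, with 4.37 in wild type limb, 4.79 in midbrain and 6.64 in ES cells. The other 3 bins of wild type limb lay between 3.38 and 3.86. In limb i4i5 the first bin stood at 4.26, close to its wild type value, and the highest of the other 3 at 2.89. In limb i4i5ZRS the first bin stood at 4.85 and the others between 2.88 and 3.37. In limb i4i5 with ZRSreg the first bin stood at 3.75 and the others between 2.68 and 3.03. All 4 bins lay below wild type in this map, as in limb i4i5. Its first-bin interval (3.29 to 4.25) overlapped that of wild type limb (3.90 to 4.88). A single bin rests on few contacts (326 for the first bin in wild type limb), and neighbouring bins share ligation products and balancing.

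Rnf32 lies on a slope of Shh contact that climbs into the Lmbr1 body. The ZRS was not placed in a bin, so its position on this slope is not known here. In wild type limb the 4-bin window next below (690 to 720 kb) stood at 2.48, Rnf32 at 3.81, and the windows above at 4.89 (770 to 800 kb), 7.18 (810 to 840 kb) and 5.82 (850 to 880 kb). The same order from 690 to 840 kb held in wild type midbrain (3.20, 3.88, 6.49 and 7.78) and in ES cells (4.08, 4.74, 5.73 and 7.57). In ES cells the step from the window below to Rnf32 was smaller, and the ES map was higher than limb by 0.72 below Rnf32 and by 0.32 at Rnf32, a difference of 0.40 (0.17 to 0.64) on the log2 scale. Midbrain was higher than limb at the windows on both sides of Rnf32, by 0.34 (0.09 to 0.59) and 0.38 (0.19 to 0.57) more than at Rnf32 itself.

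**Figure D2:**
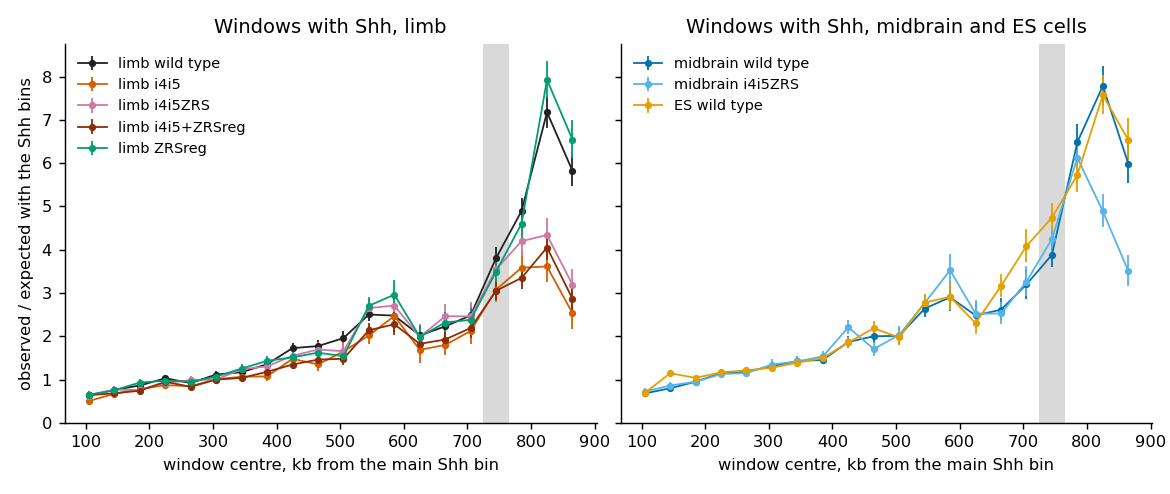
Contact with the Shh bins of 4-bin windows along the domain (observed over expected, 95% counting intervals), by distance of the window centre from the main Shh bin; the grey band is the Rnf32 window. Limb i4i5 lies below wild type limb at Rnf32 (3.08 against 3.81) and in every desert window drawn, though barely at 570 to 600 kb (2.47 against 2.48). The gap is widest above Rnf32, with 3.61 against 7.18 at 810 to 840 kb.

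With the CTCF sites deleted, the top of the slope was lower by far more than Rnf32. In limb i4i5 the windows at 810 to 840 and 850 to 880 kb stood at 3.61 and 2.53, log2 ratios of -0.99 and -1.20 to wild type, against -0.31 at Rnf32. The differences from the Rnf32 ratio were -0.68 (-0.92 to -0.45) and -0.89 (-1.18 to -0.61). In limb i4i5ZRS these windows had ratios of -0.73 and -0.87 against -0.10 at Rnf32, and the differences were -0.62 (-0.83 to -0.41) and -0.76 (-0.997 to -0.53). On the ZRSreg-deleted background the differences from Rnf32 were -0.77 (-0.97 to -0.58) and -0.995 (-1.22 to -0.77). In midbrain i4i5ZRS they were -0.80 (-1.004 to -0.60) and -0.90 (-1.14 to -0.66), with ratios of -0.67 and -0.77 there against 0.13 at Rnf32. None of these 8 intervals includes 0.

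The window next above Rnf32, at 770 to 800 kb, lay between. Its ratio was -0.45 in limb i4i5, -0.22 in limb i4i5ZRS and -0.08 in midbrain i4i5ZRS. Its difference from Rnf32 was -0.14 (-0.39 to 0.10) in limb i4i5 and -0.12 (-0.33 to 0.10) in limb i4i5ZRS, which the counts do not separate from 0. It was -0.21 (-0.42 to -0.01) in midbrain i4i5ZRS and -0.26 (-0.48 to -0.05) on the ZRSreg-deleted background. The window next below Rnf32 differed from it by 0.08 (-0.22 to 0.39) in limb i4i5 and 0.09 (-0.18 to 0.36) in limb i4i5ZRS. In these comparisons Rnf32 was not separated from its desert neighbour, with wide intervals. Limb ZRSreg without CTCF deletion ran the other way, with the windows at 810 to 840 and 850 to 880 kb higher relative to Rnf32 by 0.27 (0.09 to 0.44) and 0.29 (0.10 to 0.48).

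**Figure D3:**
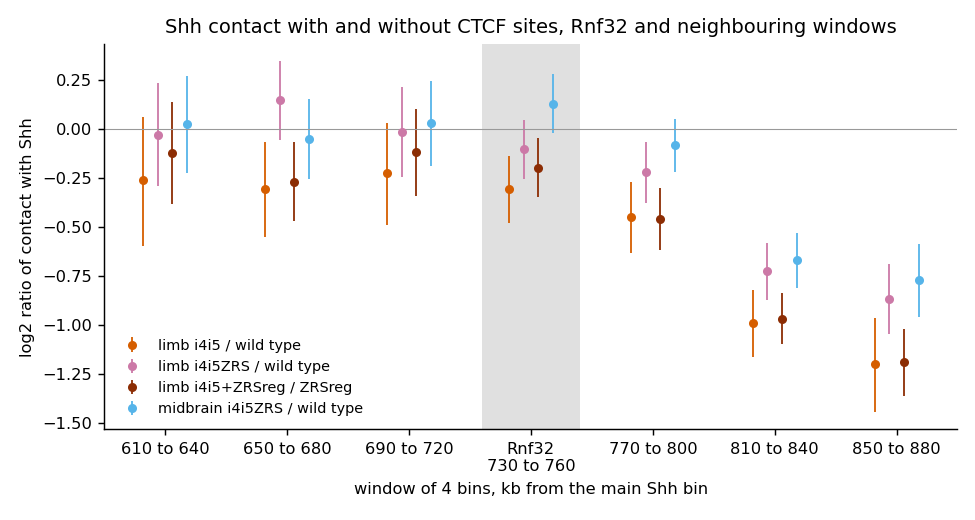
Log2 ratio of Shh contact between a map with CTCF site deletions and its reference, for 7 windows of 4 bins (95% counting intervals); the grey band is Rnf32. At Rnf32 the ratios lie between -0.31 and 0.13, and at 850 to 880 kb between -1.20 and -0.77.

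Contact with the Lmbr1 body, the 14 bins from 29560001 to 29700000 that begin beside the window, was slightly below the average for its distance. Lmbr1 encodes a membrane protein and is known here for the ZRS in its intron. Values were 0.866 in wild type limb, 0.834 in midbrain and 0.877 in ES cells. Limb i4i5 stood at 0.897, limb i4i5ZRS at 0.973 and limb i4i5 with ZRSreg at 0.956. Midbrain i4i5ZRS stood at 0.942, limb ZRSreg at 0.889 and the Lmbr1 promoter deletion at 0.863. The maps without i4 and i5 had higher values than their wild type, though in limb i4i5 the log2 ratio was -0.043 on contact counts without balancing, and no map reached 1.

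The log2 ratio was 0.17 (0.12 to 0.22) in limb i4i5ZRS, 0.14 (0.10 to 0.19) in limb i4i5 with ZRSreg and 0.18 (0.13 to 0.23) in midbrain i4i5ZRS, each against its wild type. Limb i4i5 gave 0.05 (-0.01 to 0.11), the Lmbr1 promoter deletion -0.00 (-0.05 to 0.04) and limb ZRSreg 0.04 (-0.01 to 0.08). All 14 bins were higher than wild type in limb i4i5ZRS, 12 in limb i4i5 with ZRSreg, 12 in midbrain i4i5ZRS and 8 in limb i4i5. The difference was larger toward the upper border. At the last Lmbr1 bin (900 kb) wild type limb stood at 0.815 and limb i4i5ZRS at 1.16, and wild type midbrain at 0.732 and midbrain i4i5ZRS at 1.11. Without the 5 bins at 860 to 900 kb the midbrain i4i5ZRS ratio was 0.036 and the limb i4i5 with ZRSreg ratio 0.060. Coverage before balancing in those 5 bins was lower in limb i4i5 (log2 -0.65 against the bins beside them) than in the other maps (-0.39 to -0.27), and its part in the limb i4i5 value was not tested.

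The midbrain to limb ratio over the Lmbr1 body, -0.05 (-0.10 to -0.01), hid opposite signs along the gene. Close to Rnf32, at 780 kb, midbrain stood at 1.07 and limb at 0.864. At 880 and 890 kb midbrain stood at 0.559 and 0.542 and limb at 0.745 and 0.810. The ratio was -0.17 over the bins at 50 kb or more from the window and 0.058 without the 5 uppermost bins. ES cells and limb did not separate over the whole body, with 0.02 (-0.02 to 0.06).

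The upper border bin, at 910 kb, divides the Shh domain from the next. Rnf32 contacted it at 0.840 in wild type limb, 0.772 in midbrain and 0.825 in ES cells. Limb i4i5 stood at 1.21, limb i4i5ZRS at 1.23, limb i4i5 with ZRSreg at 1.07 and midbrain i4i5ZRS at 1.11, all 4 above 1. The intervals of limb i4i5 with ZRSreg (0.943 to 1.21) and midbrain i4i5ZRS (0.976 to 1.27) include 1. The values were 0.873 in limb ZRSreg and 0.754 in the Lmbr1 promoter deletion. On the log2 scale these 4 maps differed from wild type by 0.53 (0.22 to 0.83), 0.55 (0.29 to 0.82) and 0.35 (0.09 to 0.61) in the 3 limb maps and 0.53 (0.23 to 0.83) in midbrain.

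Beyond that border, contact of Rnf32 with the upper flank (the 50 bins from 29710001 to 30210000) was below average in every map, and differed between the wild types and between maps with and without the CTCF sites. Wild type limb stood at 0.652 (0.636 to 0.669), midbrain at 0.556 (0.538 to 0.574) and ES cells at 0.464 (0.449 to 0.479). Over the 50 bins the 3 wild types did not overlap, and their order was limb, midbrain, ES cells. At 10 to 100 kb above the border, limb at 0.558 (0.534 to 0.583) and midbrain at 0.533 (0.505 to 0.562) did overlap. The log2 ratio of ES cells to limb was -0.17 in that stretch and -0.74 at 410 to 500 kb. Midbrain was lower than limb by a log2 ratio of -0.23 (-0.29 to -0.17), with 6 of 50 bins higher, and ES cells by -0.49 (-0.55 to -0.43), with 1 of 50 bins higher.

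All the limb maps without i4 and i5 lay above wild type limb. Limb i4i5 stood at 0.863 (0.835 to 0.892), limb i4i5 with ZRSreg at 0.818 (0.799 to 0.838) and limb i4i5ZRS at 0.794 (0.772 to 0.818). Their log2 ratios to wild type were 0.40 (0.34 to 0.46), 0.33 (0.28 to 0.38) and 0.28 (0.23 to 0.34), with 49, 47 and 43 of 50 bins higher. Against the ZRSreg map (0.606, 0.588 to 0.624) the i4i5 with ZRSreg ratio was 0.43 (0.38 to 0.49), with 48 of 50 bins higher. Midbrain i4i5ZRS stood at 0.672 (0.651 to 0.692), a ratio of 0.27 (0.21 to 0.34) to its own wild type, and its interval overlapped that of wild type limb. Limb ZRSreg was lower than wild type limb by -0.11 (-0.16 to -0.05), and the Lmbr1 promoter deletion at 0.636 gave -0.04 (-0.09 to 0.02). The value for the Lmbr1 promoter deletion covered opposite signs along the flank. It was 0.18 (0.09 to 0.27) at 10 to 100 kb above the border and -0.18 (-0.33 to -0.03) at 410 to 500 kb. The stretches between had intervals that include 0. The limb i4i5ZRS map was below the limb i4i5 map by -0.12 (-0.18 to -0.06).

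The same differences toward the flank were seen over the domain as a whole. A partner bin was counted as different past a log2 ratio of 0.3, as the mean over its 4 pairs, and the same count was made for every 4-bin window of the domain with every flank bin. In limb i4i5, 35 of 50 flank bins (70%) were higher with Rnf32, and over all domain windows the share was 57.1%. The counts were 29 (58%) against 52.5% in limb i4i5ZRS and 31 (62%) against 50.7% in limb i4i5 with ZRSreg. For i4i5 with ZRSreg over ZRSreg the count was 38 (76%) against 62.8%. In midbrain i4i5ZRS, 22 flank bins (44%) were higher, against 54% over the domain. In ES cells, 33 flank bins (66%) were lower than in limb, against 59.1%. The counts of lower bins were 6 (12%) against 19.9% in limb ZRSreg and 6 (12%) against 12.8% in the Lmbr1 promoter deletion. For i4i5ZRS over i4i5 the count of lower bins was 11 (22%) against 20.7%. Shares near these backgrounds are no result about Rnf32.

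In the midbrain to limb comparison, 13 of 50 flank bins (26%) were lower with Rnf32, against 15% over the domain. The median log2 ratio of the 50 bins was -0.19 for Rnf32 and 0.03 for all domain windows. These medians had opposite signs in the Lmbr1 promoter deletion too, at -0.02 and 0.04. By position, the flank ratio of midbrain to limb was between 0.06 and 0.20 in each window from 90 to 560 kb above Shh and between -0.23 and -0.02 in each window from 570 to 880 kb. Rnf32, at -0.23, had the lowest of these values. The domain window set here is a description, since overlapping windows share contacts.

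**Figure D4:**
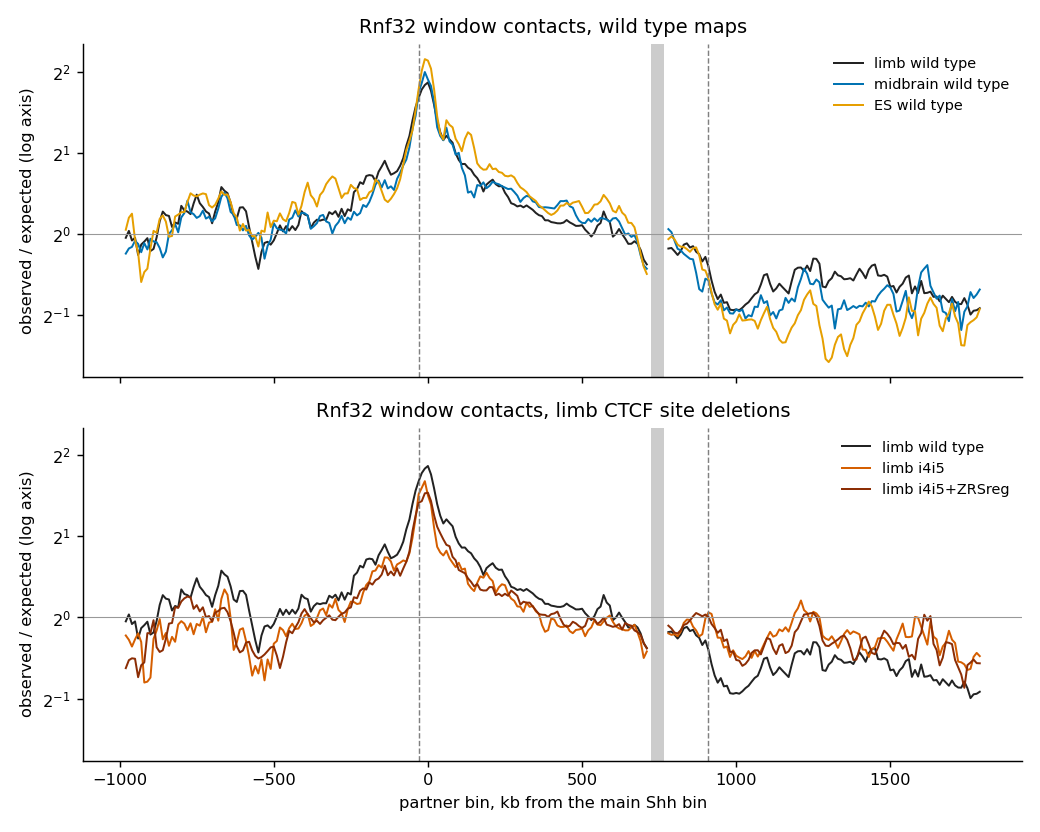
Contact of the Rnf32 window with all partner bins (mean of 3 neighbouring bins, observed over expected on a log2 axis) by distance from the main Shh bin, for the wild types (top) and for limb CTCF site deletions (bottom); the grey band is the window, and the dashed lines are the domain borders. The profiles peak at Shh and drop past the upper border, where wild type limb averages 0.652, ES cells 0.464 and limb i4i5 0.863.

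Toward the desert between Shh and Rnf32 (72 bins), contact was above average and differed in the opposite direction to the flank. Wild type limb stood at 1.37, midbrain at 1.42 and ES cells at 1.58. In wild type limb it climbed with distance from Rnf32, from 0.891 in the nearest 100 kb of the desert to 2.13 at 610 to 700 kb. ES cells were higher than limb by 0.20 (0.17 to 0.23), with 66 of 72 bins higher, and midbrain by 0.05 (0.01 to 0.08), with 48. Among domain partners at 50 kb or more, 16 of 81 (19.8%) were higher past the threshold in ES cells, against 21.8% over the domain.

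The maps without i4 and i5 were lower over the desert. Limb i4i5 stood at 1.16, limb i4i5ZRS at 1.18 and limb i4i5 with ZRSreg at 1.19. The ratio to wild type on the log2 scale was -0.25 (-0.29 to -0.21), -0.22 (-0.26 to -0.18) and -0.21 (-0.24 to -0.17) respectively. In these maps 7, 11 and 7 of 72 bins were higher than wild type. The nearest 100 kb differed least, with -0.07, -0.00 and -0.02, and the stretch at 610 to 700 kb most or nearly so, with -0.38, -0.33 and -0.27. Against the ZRSreg map the ratio over the desert was -0.19 (-0.23 to -0.16), and midbrain i4i5ZRS at 1.31 gave -0.11 (-0.15 to -0.07). Limb ZRSreg (1.36) gave -0.02 (-0.05 to 0.02) and the Lmbr1 promoter deletion (1.41) gave 0.03 (0.00 to 0.07).

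Counted by bins within the domain, 23 of 81 partners of Rnf32 (28.4%) were lower in limb i4i5, against 21.8% over the domain. The counts were 18 (22.2%) against 13.6% in limb i4i5ZRS and 19 (23.5%) against 14.4% in limb i4i5 with ZRSreg. They were 14 (17.3%) against 14.8% for i4i5 with ZRSreg over ZRSreg, and 2 (2.47%) against 9.36% in midbrain i4i5ZRS. The limb shares lay above or near the background, and the midbrain share below it.

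Past the lower border, mean contact of Rnf32 with the lower flank (the 50 bins from 28260001 to 28760000) was above average, unlike its contact with the upper flank. Values were 1.41 in wild type limb, 1.31 in midbrain and 1.46 in ES cells. Limb i4i5 stood at 1.19, limb i4i5ZRS at 1.18, limb i4i5 with ZRSreg at 1.16 and midbrain i4i5ZRS at 1.11, against 1.39 in limb ZRSreg and 1.33 in the Lmbr1 promoter deletion. The log2 ratios of the CTCF deletion maps to wild type were -0.24 (-0.30 to -0.17), -0.25 (-0.31 to -0.19), -0.27 (-0.33 to -0.22) and -0.24 (-0.30 to -0.17). The 4 deletion maps were the lowest of the 9. These means covered a fall with distance from the border. Wild type limb stood at 2.04 at 10 to 100 kb below it and at 1.00 (0.919 to 1.09) at 410 to 500 kb. Limb i4i5 stood at 1.72 and 0.807 in the same stretches. Bins lower past the threshold numbered 17 of 50 (34%) in limb i4i5, against 24.7% over the domain. The counts were 20 (40%) against 25.1% in limb i4i5ZRS and 24 (48%) against 22.3% in limb i4i5 with ZRSreg. They were 26 (52%) against 25.4% for i4i5 with ZRSreg over ZRSreg, and 21 (42%) against 34% in midbrain i4i5ZRS. Each of these shares was above that of the domain.

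As shares of the window's own contacts at 20 kb or more, before balancing, the upper side beyond the border took 15.5% (15.2 to 15.8, Wilson interval) in wild type limb, 13.1% in midbrain and 10.8% in ES cells. It took 22.1% in limb i4i5, 20.9% in limb i4i5 with ZRSreg, 19.7% in limb i4i5ZRS and 16.2% in midbrain i4i5ZRS, and 14.5% and 14.9% in the ZRSreg and Lmbr1 promoter deletions. The desert took 47.0%, 49.8% and 54.6% in the wild types in the same order and 42.5%, 43.3% and 42.4% in the limb CTCF deletion maps. The Shh bins took 1.68% (1.58 to 1.79) in wild type limb and between 1.40% and 1.72% in the other maps. ES cells were at 1.48% (1.39 to 1.58), below limb, although their observed over expected value with Shh was the highest. The lower side beyond the border took 17.0% in wild type limb and 12.1% in ES cells. Over the lower flank, by contrast, observed over expected was 1.41 in limb and 1.46 in ES cells. In limb i4i5 the lower side took 16.2% (15.7 to 16.6), near wild type limb, although observed over expected with the lower flank was lower. It took 15.6% in limb i4i5 with ZRSreg and 14.1% in limb i4i5ZRS. In midbrain it took 15.8% in wild type and 13.3% in i4i5ZRS. Shares are not divided by the mean at each separation. Shares add to a whole, so a larger share on one side is a smaller one elsewhere.

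The strongest single partner of Rnf32 at 100 kb or more was at or beside Shh in all 9 maps, 0 to 20 kb below the main Shh bin. It stood at 3.86 in wild type limb, 4.20 in midbrain and 4.87 in ES cells. In midbrain i4i5ZRS it stood at 4.26, in limb i4i5ZRS at 3.78, in limb i4i5 at 3.46 and in limb i4i5 with ZRSreg at 3.25. In the ZRSreg and Lmbr1 promoter deletions it stood at 3.62 and 3.99. On the upper side, Lmbr1 bins nearer than 860 kb were left out, where wild type midbrain stood at 1.07 (780 kb). From 860 kb to the end of the map, the strongest partner on the upper side reached 0.823 to 1.26. In limb i4i5ZRS and midbrain i4i5ZRS it was the upper border bin, at 1.23 and 1.11. In limb i4i5 with ZRSreg (1.26, 0.95 to 1.64) and limb i4i5 (1.23, 0.93 to 1.60) it lay beyond the upper flank. Those bins, at 1620 and 1640 kb, rest on 57 and 55 contacts.

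By bins of the smoothed profile, the lowest point in ES cells against limb was in the flank at 1300 kb, where contact was 0.334 against 0.669 (log2 -0.999), and the highest was below Shh at -310 kb, with 1.63 against 1.18 (0.47). In midbrain the lowest was at 1320 kb, with 0.445 against 0.724 (-0.70). In limb i4i5 the highest points were at 1590, 1690 and 1210 kb (0.73, 0.68 and 0.62), the last with 1.16 against 0.751. In limb i4i5ZRS they were at 1610, 1510 and 1220 kb (0.63, 0.55 and 0.52) and in limb i4i5 with ZRSreg at 1610, 940 and 1690 kb (0.76, 0.61 and 0.53). In midbrain i4i5ZRS the highest was the border bin at 910 kb, with 1.03 against 0.673 (0.62). The lowest points of the limb CTCF maps lay at -910 kb in i4i5 (-0.74), at -920 kb in i4i5ZRS (-0.91) and at -610 kb in i4i5 with ZRSreg (-0.76). In the desert, the bin 30 kb above the main Shh bin was among the 3 lowest in limb i4i5ZRS, with 1.82 against 2.64 (-0.54). The points past 1500 kb and below -600 kb rest on 36 to 230 contacts a map.

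Across the 9 maps, the windows whose log2 Shh contact varied most like that of Rnf32 lay in the desert, where most windows lie. The window least like Rnf32, at 10 to 40 kb, was in the desert too. Over 80 windows of 4 bins the median Pearson's r with Rnf32 was 0.85, from -0.77 to 0.97. The 3 windows most like it were at 440 to 470 kb (0.97), 430 to 460 kb (0.96) and 660 to 690 kb (0.95), and the first and second overlap. The window next above, at 770 to 800 kb, had 0.87. All points share the Shh bins, the maps and their depth, so these values describe the maps and are no test.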

How the data were processed

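Capture Hi-C libraries of the Shh locus were cut with DpnII and enriched with custom probes, per the labels' protocols. Tools listed without settings in the submitters' processing notes are Juicer, SAMtools, Bowtie2 2.3.4.1 and cutadapt 1.15, with the mm9 build. The deposited values are a balanced (KR) signal per pair of 10 kb bins with mapping quality 30, with the samples of a group merged by the authors into 1 map, as the file names give it. Balancing gives every bin of a map the same total, so a gain with one partner is offset by a loss with others.

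Pairs not listed were taken as 0. Signal was divided by the map's mean at the same separation. Contact counts were recovered as whole numbers times bin factors (100% within 0.01 of whole), which gave 1177173 to 3218492 contacts a map. Intervals (95%) are gamma for levels, beta for ratios and Wilson for shares, and without molecular identifiers the counts are not of independent molecules. Domain borders were minima of mean insulation over all maps (square of 10 bins). The 10 comparisons have 1 map on each side, so no test was run.

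A partner bin was called past a log2 ratio of 0.3 at 50 kb or more from the window. Named features were Rnf32 with Shh and Lmbr1, the strongest partner of each map, the 3 highest and 3 lowest bins of each comparison in a profile smoothed over 3 bins (at 100 kb or more, 50 kb apart, a selection of which is printed) and the 3 windows most like Rnf32. The window, regions and rules were chosen with earlier results of these data known. Alternatives were another expected value, counts without balancing, other window, Shh, Lmbr1 and flank bins, G4 reference maps, another threshold, thinned counts and other separations. Scripts used Python 3.11.15, numpy 2.4.6, scipy 1.17.1 and pandas 2.3.3 and were tested on simulated maps.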

Additional observations from a re-analysis of the deposited data

Results flagged for a closer look

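The i4i5ZRS deletion went with opposite signs of Shh contact at Rnf32 in the 2 tissues, with a log2 ratio to wild type of -0.10 in limb and 0.13 in midbrain. The difference between the ratios was 0.23 (0.02 to 0.45, counting error only). With 1 map on each side this difference was not tested, and each ratio alone has an interval that includes 0. The signs were not opposite under every choice of bins: with 4 Shh bins in place of 2 the midbrain ratio was -0.055. For the upper flank the same difference was -0.01 (-0.10 to 0.07), and for the desert it was 0.11 (0.06 to 0.16).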

How the results depend on the processing

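Of ratios whose counting interval did not include 0, the direction was the same in 57 of 57 alternatives for the upper flank, 35 of 35 for the desert, 31 of 31 for the lower flank, 31 of 32 for the Shh bins and 37 of 38 for the Lmbr1 body. The exceptions were i4i5ZRS over i4i5 with Shh, -0.010 for the main Shh bin alone, and midbrain over limb with the Lmbr1 body, 0.058 without the 5 uppermost bins (an alternative chosen after seeing the data). The cause was not tested. The values below are those that moved by more than their interval or 1.5 times.

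On counts without balancing the Shh ratio was 0.12 in ES cells, -0.27 in limb ZRSreg and -0.038 for i4i5 with ZRSreg over ZRSreg. The Lmbr1 body ratio was then -0.11 in ES cells, -0.043 in limb i4i5, 0.072 in i4i5 with ZRSreg, 0.066 in the Lmbr1 promoter deletion, 0.025 for i4i5 with ZRSreg over ZRSreg and 0.20 for i4i5ZRS over i4i5. The upper flank ratio was -0.59 in ES cells and 0.39 in i4i5 with ZRSreg, and the desert ratio was 0.095 in midbrain. With the median as the expected value, Shh in i4i5 with ZRSreg gave -0.48 and the upper flank in i4i5 gave 0.34. The desert then gave 0.25 in ES cells, -0.32 in i4i5, -0.27 in i4i5ZRS, -0.27 in i4i5 with ZRSreg and -0.25 for i4i5 with ZRSreg over ZRSreg, and the lower flank gave -0.35, -0.35, -0.36 and -0.33 in those 4 deletion comparisons. With 1 window bin left out, ES cells gave 0.18 for Shh, -0.58 for the upper flank and 0.23 for the desert at the extreme. With 4 Shh bins midbrain i4i5ZRS gave -0.055. Lmbr1 bins at 50 kb or more gave -0.17 in midbrain, -0.075 in the Lmbr1 promoter deletion, 0.25 in midbrain i4i5ZRS and 0.18 for i4i5 with ZRSreg over ZRSreg. Without its 5 uppermost bins the Lmbr1 body gave 0.060 in i4i5 with ZRSreg, 0.053 in the Lmbr1 promoter deletion, 0.036 in midbrain i4i5ZRS and 0.0028 for i4i5 with ZRSreg over ZRSreg. A flank of 30 bins gave -0.36 in ES cells, 0.36 in i4i5ZRS and 0.034 in the Lmbr1 promoter deletion. Against the G4 limb maps without CTCF deletions the upper flank ratio was 0.47 in i4i5, 0.40 in i4i5 with ZRSreg and 0.36 in i4i5ZRS.

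At a log2 threshold of 0.5 the flank counts were 7 lower in midbrain, 15, 9 and 12 higher in i4i5, i4i5ZRS and i4i5 with ZRSreg, 1 and 2 lower in the ZRSreg and Lmbr1 promoter deletions, 9 higher in midbrain i4i5ZRS, 20 higher for i4i5 with ZRSreg over ZRSreg and 3 lower for i4i5ZRS over i4i5. Within the domain they were 3 higher in ES cells and 4, 5, 2, 0 and 1 lower in i4i5, i4i5ZRS, i4i5 with ZRSreg, midbrain i4i5ZRS and i4i5 with ZRSreg over ZRSreg, and toward the lower flank 7, 7, 3, 6 and 7 lower in the same order. With the median as the expected value the domain counts were 26 in ES cells, 9 in midbrain i4i5ZRS and 22 for i4i5 with ZRSreg over ZRSreg, and the lower flank count in i4i5 was 26. With counts thinned to the shallowest map they were 28 in ES cells and 10 in midbrain i4i5ZRS within the domain, and 12 and 13 toward the upper flank in the ZRSreg and Lmbr1 promoter deletions. No paired analysis was possible because the samples of each group were merged into 1 map before deposit, and no sample could be left out for the same reason. Depth limits single bins most, in limb i4i5 with 1177173 contacts.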
